A study of Homo sapiens with 2 samples.

Results

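Neuroblastoma cells occur in an adrenergic state, which resembles sympathetic neuroblasts, and a mesenchymal state, which resembles migratory neural crest. The mesenchymal loci described here are those of 9 genes that are known for the mesenchymal state: the transcription factors PRRX1, SNAI2, RUNX1 and FOSL1, the Hippo pathway proteins YAP1 and TEAD1, and the surface and filament proteins NOTCH2, CD44 and VIM. They were chosen by name and the rule uses no measured value, but earlier results of these data were known when the list was made. A MYC peak was assigned to a gene when its summit lay within 5 kb of a GRCh37 start site. RUNX1 is known to be transcribed from a distal and a proximal promoter and counted with both, which gave 10 start sites. All 9 genes and all 10 start sites had a peak, and 19 of the 17659 peaks in the list belonged to them. Positions within 5 kb of any summit made up 4.63% of the length between the outermost summits of chromosomes 1 to 22 and X. The share of all promoters or genes with a peak was not computed, so whether these counts are particular to the 9 genes was not tested.

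MYC, a transcription factor of the helix-loop-helix type, binds DNA together with its partner MAX, preferentially at E-box sequences such as CACGTG. Its binding had been measured by ChIP-seq, in which DNA crosslinked to MYC is pulled down with an antibody and sequenced. The series holds 1 ChIP library and 1 input library of sonicated chromatin from SH-EP/TET21/N (TET21) cells that express WT-MYC. TET21 was cloned from SH-EP neuroblastoma cells and carries a MYCN transgene that doxycycline switches off, and SH-EP is itself known as a line of mesenchymal type. Both libraries came from cells kept in 1 µg/mL doxycycline for 7 days and fixed with 1% formaldehyde for 10 min. The pull-down used 2 µg of an in-house rabbit polyclonal antibody, and the labels do not state whether it also captures the endogenous MYC of these cells. With 1 library per kind there is no replicate error, no group without ectopic MYC, and no expression value for any of the 9 genes. Intervals below are exact 95% Poisson intervals on fragment counts and cover counting error only. The weakest peak of the list had a −log10 q of 1.31, which sets what could be called.

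The mesenchymal state is held by transcription factors that bind their own and each other's regulatory regions. PRRX1 is a homeobox factor that can shift adrenergic cells to the mesenchymal state, and SNAI2 (SLUG) is a zinc-finger repressor of epithelial genes. FOSL1 (FRA1) is a subunit of AP-1, and AP-1, RUNX1 and the YAP1-TEAD1 complex are known to act together at mesenchymal enhancers. NOTCH2 is a receptor of the Notch pathway, CD44 is the hyaluronan receptor, and VIM encodes the intermediate filament vimentin.

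Promoter sequences were available for 6 of the 9 genes (RUNX1, PRRX1, YAP1, CD44, VIM and NOTCH2), from RefSeq on GRCh38.p14. Each covers 250 bases before to 50 bases after the RefSeq start site. For PRRX1 that start site lies 1363 bp from the gene's outermost start in the same build. Whether it is the PRRX1 start site used for the peaks was not checked. The canonical E-box CACGTG, which reads the same on both strands, was found in 1 of the 6, that of YAP1, against 7.26% of the 35116 promoters in the table. When CACGCG and CATGTG were also searched on both strands, YAP1 was still the only one of the 6 with a match, against 27.2% of the promoters in the table. The following 250 bases before the start site are shown for 3 genes, 5′ to 3′, because their peaks lie differently. The YAP1 peak lies over most of this stretch, a RUNX1 peak covers all of it at the proximal promoter, and no VIM peak reaches it. Capitals mark the E-box.
YAP1: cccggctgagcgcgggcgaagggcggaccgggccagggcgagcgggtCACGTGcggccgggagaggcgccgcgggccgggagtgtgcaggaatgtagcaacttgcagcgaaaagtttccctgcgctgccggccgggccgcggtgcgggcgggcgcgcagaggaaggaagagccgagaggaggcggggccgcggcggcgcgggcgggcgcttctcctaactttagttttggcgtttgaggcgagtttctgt
RUNX1 proximal promoter: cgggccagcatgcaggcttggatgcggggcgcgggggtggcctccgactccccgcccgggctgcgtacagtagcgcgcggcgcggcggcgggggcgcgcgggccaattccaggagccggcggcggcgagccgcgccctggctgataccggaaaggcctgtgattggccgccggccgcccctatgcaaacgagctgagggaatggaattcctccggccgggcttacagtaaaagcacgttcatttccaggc
VIM: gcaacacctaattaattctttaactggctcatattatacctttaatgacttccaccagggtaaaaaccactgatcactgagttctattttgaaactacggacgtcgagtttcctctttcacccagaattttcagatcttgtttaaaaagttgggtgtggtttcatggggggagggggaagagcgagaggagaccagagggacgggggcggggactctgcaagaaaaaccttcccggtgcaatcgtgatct
The E-box of YAP1 begins at position −203, counted from the RefSeq start site. The YAP1 peak ran from −390 to −45, counted from the GRCh37 start site. The start sites of the builds were not aligned, so whether the peak spans the E-box rests on their lying close together. The RUNX1 sequence is that of the proximal promoter by its distance to the gene's outermost start in the same build, 160603 bp, while the RUNX1 start sites used for the peaks are 160608 bp apart. It holds none of the E-box forms searched. The peak that covered it was 1387 bp wide, and the rest of that peak was not searched. The summit of that peak lay 68 bp downstream of the GRCh37 start site, past the 50 bases searched. A match or its absence in this window is a description of the letters only.

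Peaks lay close to the start sites. Of the 19 summits, 14 lay within 1 kb of the start site, and each of the 10 start sites had at least 1 of these 14. Positions within 5 kb of any summit made up 4.63% of the length between the outermost summits of chromosomes 1 to 22 and X, and positions within 1 kb made up 1.04%. These shares are a background for any position and not for promoters, where MYC is known to concentrate. The share of all genes with a peak was not computed, since no GRCh37 annotation was used here. The nearest summit was between 68 bp (RUNX1 proximal promoter) and 885 bp (RUNX1 distal promoter) away, with a median of 253 bp over the 10 start sites.

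**Figure D1:**
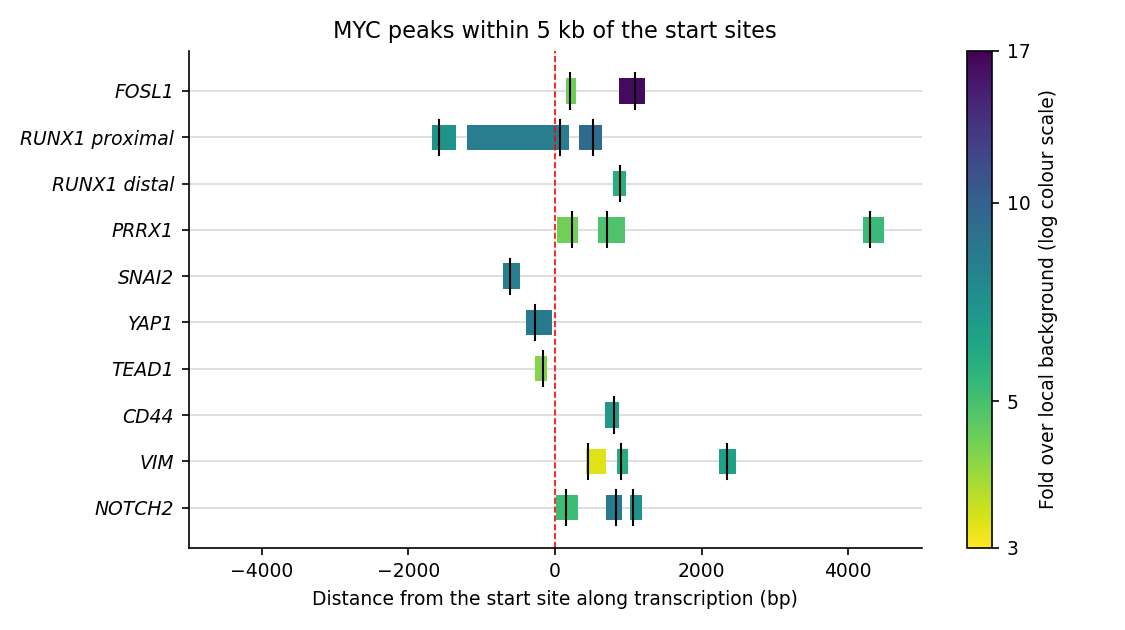
Peaks within 5 kb of the 10 start sites, with distance along transcription in bp on the x axis (negative is upstream) and 1 row per start site. Bars span each peak, black ticks mark summits, the dashed line is the start site and colour gives the fold over local background on a log scale. Of the 19 summits 15 lie downstream of the start site and 4 upstream, and the FOSL1 peak at 1088 bp is the darkest.

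Most of the 19 summits fell downstream of their start sites, and several of these share a promoter. In the map of peaks within 5 kb, 15 of 19 summits lay downstream of their start site and 4 upstream. The nearest summit was downstream at 7 start sites and upstream at 3, those of SNAI2, YAP1 and TEAD1, each of which had a single peak. Only the RUNX1 proximal start site lay inside a peak. A peak reached into the stretch from 250 bp before to 50 bp after the start site at 5 of the 10 start sites (RUNX1 proximal, PRRX1, YAP1, TEAD1 and NOTCH2). At FOSL1, SNAI2, CD44, VIM and the distal RUNX1 promoter the peaks lay outside that stretch. The matching shares for other start sites were not computed, so whether these positions are particular to the 9 genes was not tested. The member summit closest to the 5 kb limit from inside was that of PRRX1 at 4293 bp (fold 5.24), and the closest from outside was a CD44 peak at 5.44 kb (fold 5.32).

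By their medians the peaks were ordinary in strength for the list, while single peaks stood near both ends. By −log10 p the strongest FOSL1 peak was at percentile 98.2, the TEAD1 peak at 2.66 and the VIM peak at 444 bp at 2.54. The median fold of the 19 peaks was 6.40, as in the whole list (6.40), and the median pileup, that is, how many ChIP fragments covered the summit, was 13 in both. The median −log10 p was 10.2 against 10.3 in the list. At or above the list's median −log10 p were 9 of 19 member peaks, against 50.3% of the list. At or above its upper quartile, a −log10 p of 15.3, were 2 of 19, against 25.1% of the list, and these belonged to FOSL1 and RUNX1. Only 1 of 19 had a fold of at least 10, against 15.4% of the list.

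**Figure D2:**
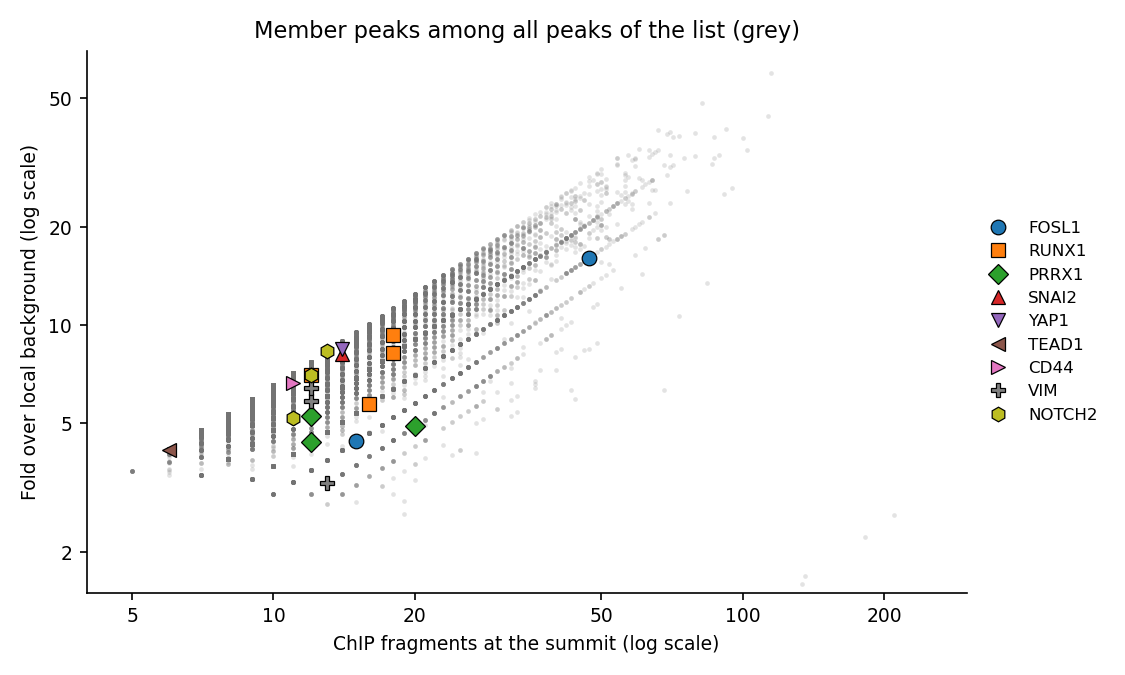
Fold over local background against ChIP fragments at the summit, both on log axes, for all 17659 peaks (grey) and the 19 member peaks (coloured by gene; a RUNX1 and a NOTCH2 peak coincide at 12 fragments). The FOSL1 peak with 47 fragments stands right of and above the other 18, which have 6 to 20 fragments.

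The strongest peak belonged to FOSL1. It lay on chromosome 11 at 65666773 to 65667126, with its summit 1088 bp downstream of the start site and a width of 354 bp. Over its summit lay 47 fragments (34.5 to 62.5) where 1.98 were expected from the background, which gave a fold of 16.1. Its −log10 p was 47.70. The peak ranked 322 of the list by −log10 p and 601 by fold. The pileup intervals of the other 18 member peaks, with 6 to 20 fragments, all overlapped each other, since their highest lower bound was 12.2 and their lowest upper bound 13.1. None of their intervals reached the lower bound of the FOSL1 peak. A weaker FOSL1 peak of 142 bp, the minimal width in the list, lay closer to the start site at 201 bp downstream, at 65667706 to 65667847. It had 15 fragments (8.4 to 24.7) over 2.64 expected and a fold of 4.40.

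RUNX1, the DNA-binding partner of CBFB, had 3 peaks at its proximal promoter and 1 at its distal promoter, on chromosome 21. The peak over the proximal start site (36260801 to 36262187) was 1387 bp wide and ranked 7 of the list by width, where 48 peaks exceeded 1000 bp. It ran from 1200 bp upstream to 186 bp downstream, with its summit 68 bp downstream, 18 fragments (10.7 to 28.4) and a fold of 8.19. The next peak downstream (36260350 to 36260660) also had 18 fragments and a fold of 9.36, and the one upstream (36262334 to 36262667) had 12 fragments (6.2 to 21.0) and a fold of 7.05. Gaps of 140 and 146 bp separated these 3 peaks, which together covered 2032 bp. The distal promoter had 1 narrow peak of 169 bp (36420630 to 36420798), 885 bp downstream, with 16 fragments (9.1 to 26.0), 1.98 expected and a fold of 5.71. The intervals of the pileups at both promoters overlapped.

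PRRX1 on chromosome 1 had 3 peaks of low fold, and 1 of them had a high pileup. The peak at 170633905 to 170634273, with its summit 702 bp downstream, had 20 fragments (12.2 to 30.9), the highest pileup among the 19 after FOSL1 and percentile 82.0 of all peaks. Its background of 3.30 was at percentile 99.1, and its fold of 4.88 at percentile 18.7. The peak next to the start site (170633336 to 170633628) had 12 fragments over 1.98 and a fold of 4.36, and the peak at 4293 bp downstream (170637516 to 170637798) had 12 fragments over 1.48 and a fold of 5.24. The median background of the 11 peaks within 1 Mb was 1.32, against 1.12 over the list, and the peaks at the PRRX1 promoter lay above that level.

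SNAI2 had 1 peak, on chromosome 8 at 49834480 to 49834708, with its summit 609 bp upstream. It had 14 fragments (7.7 to 23.5) over 0.834 expected, with a fold of 8.18. The −log10 p of 13.64 was at percentile 69.5 of the list. No other peak lay within 100 kb. The next ones were 294 kb downstream and 704 kb upstream.

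Both Hippo pathway genes had 1 peak just upstream of the start site. YAP1, the co-activator that Hippo signalling keeps out of the nucleus, had 1 peak on chromosome 11 at 101980802 to 101981147, with 14 fragments (7.7 to 23.5) over 0.778 and a fold of 8.44. Its summit lay 274 bp upstream. TEAD1, the DNA-binding factor through which YAP1 acts, had 1 peak on the same chromosome at 12695696 to 12695855, with its summit 159 bp upstream. This peak had 6 fragments (2.2 to 13.1) over 0.693, with a fold of 4.13. Its −log10 p of 5.08 was at percentile 2.66 of the list. Its interval overlaps that of YAP1, and the difference was not tested. At the background of the TEAD1 peak 5 fragments would have sufficed to reach the weakest −log10 p of the list (4.00), so the call stands on 1 fragment above that limit. Only 1.08% of the list's peaks had fewer than 7 fragments.

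NOTCH2 on chromosome 1 had 3 peaks downstream of its start site, the farthest ending at 1188 bp. The middle one (120611404 to 120611627, summit at 830 bp) was the strongest, with 13 fragments (6.9 to 22.2) over 0.683 expected and a fold of 8.32. This background was the lowest value on chromosomes 1 to 22 and X, and other peaks of the list had it too. The peak 110 bp farther downstream (120611129 to 120611293) had 12 fragments and a fold of 7.05. The one at the start site (120612009 to 120612305, summit at 153 bp) had 11 fragments (5.5 to 19.7) over 1.32 and a fold of 5.17. NOTCH2 has near-identical partial copies (the NOTCH2NL genes) on the same chromosome, and how reads shared with them were placed is not given in the sources used here, so these values are uncertain. Upstream of NOTCH2 no peak was called for 22007 kb, a stretch that crosses the centromeric region.

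CD44 had 1 peak within 5 kb, on chromosome 11 at 35161095 to 35161289, 807 bp downstream, with 11 fragments (5.5 to 19.7) over 0.806 and a fold of 6.64. VIM, a gene that mesenchymal cells transcribe strongly, had 3 peaks on chromosome 10, all downstream and none above the list's median −log10 p. The one nearest to the start site (17270681 to 17270954, summit at 444 bp) had 13 fragments (6.9 to 22.2), which is the list's median, but a background of 3.30 and thus a fold of 3.26, at percentile 0.314 of the list. It stood 1 fragment above the 12 needed at that background. The next (17271106 to 17271247, summit at 906 bp) had the minimal width of 142 bp, 12 fragments and a fold of 5.86. The third (17272499 to 17272724, summit at 2348 bp) had 12 fragments and a fold of 6.40.

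**Figure D3:**
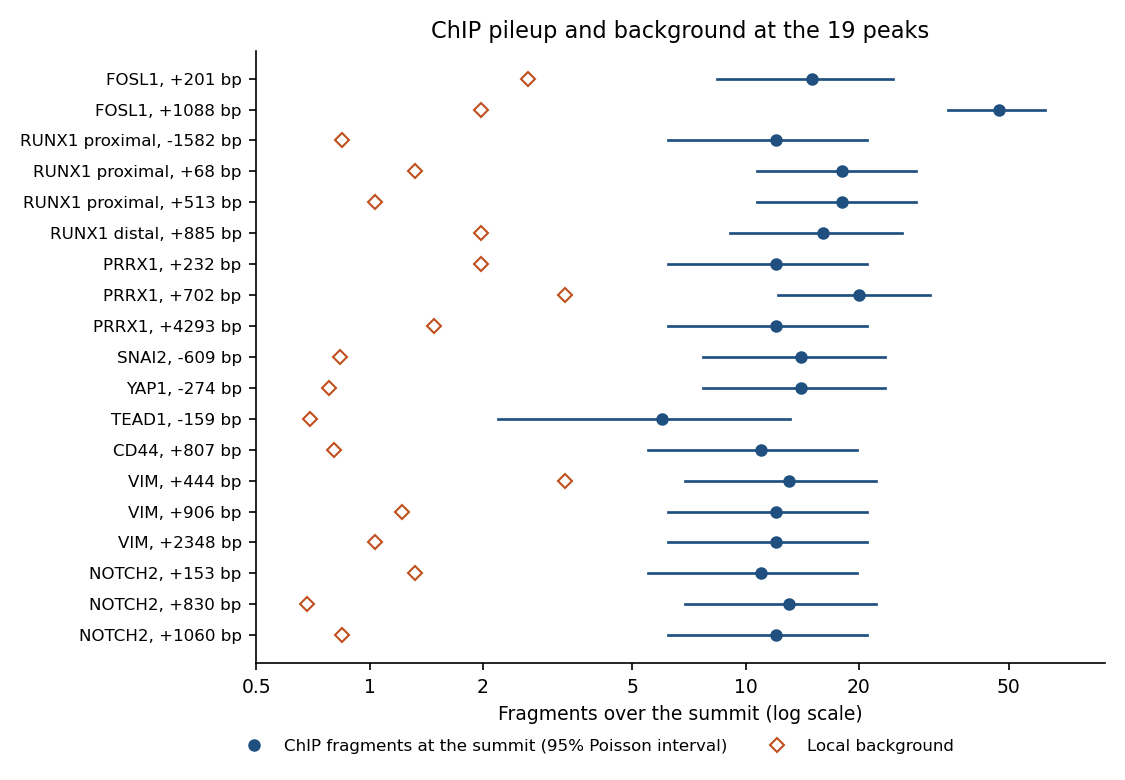
ChIP fragments over the summit (filled circles, with exact 95% Poisson intervals) and local background (open diamonds) at the 19 member peaks, on a log axis in fragments, labelled by start site and summit distance. Backgrounds range from 0.683 at NOTCH2 to 3.30 at PRRX1 and VIM, while 18 of the 19 pileups lie between 6 and 20.

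The fold is the ratio of pileup to background, each plus 1, so it depends on both by construction. The background was itself recovered from the fold, and the plot of pileups and backgrounds shows these parts without testing a relation. The background is the caller's estimate for each peak, and not all of its values can be read as input fragments over the summit. At 8 of the 19 peaks it was a whole multiple of 0.660 within 0.003. This step can be read as 1 input fragment over the summit scaled to the ChIP depth. At the other 11 peaks the background was not on a step, and no whole number of such fragments can be given. The step was set by dividing the commonest background near 3.30 by 5, so the PRRX1 and VIM peaks at 3.30 lie on it by construction. A background of at least 3 such fragments was found at 6 of the 19 member peaks, against 15.6% of the list. All 6 were on a step. They were both FOSL1 peaks, the distal RUNX1 peak, 2 PRRX1 peaks and the VIM peak nearest to the start site, and 5 of them lay within 1 kb of the start site. PRRX1 and VIM each had a peak whose background reads as 5 input fragments, and FOSL1 had one that reads as 4. At equal pileup a higher background gives a lower fold by the formula. With 13 fragments each, the VIM peak at 444 bp had a fold of 3.26 over 3.30, and the NOTCH2 peak at 830 bp had 8.32 over 0.683. The cause of the higher backgrounds was not tested.

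Many of these peaks stood in groups. Another peak lay within 1 kb of 12 of the 19, against 32.8% of the list, and the 12 belonged to 5 genes (FOSL1, RUNX1, PRRX1, VIM and NOTCH2). Of the 10 start sites, 5 had 1 peak, 1 had 2 and 4 had 3. Peaks of 1 promoter share their surroundings and are not independent, and a promoter with 3 peaks counts 3 times among the 19. The 32.8% is a share of all peaks and not of promoter peaks, for which none was computed. The median width of the 19 was 274 bp against 226 bp in the list, and 1 of them exceeded 500 bp, against 6.82% of the list. The minimal width was found in 2 of 19, against 9.21% of the list.

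Within 100 kb of the start sites lay 46 distinct peaks, of which 27 were not among the 19. Their number was uneven, with 14 of the 27 around FOSL1. FOSL1 thus had 16 peaks within 100 kb, its own 2 included. Around a summit of the list the median was 4, itself included, and 2.27% of summits had 16 or more. YAP1 and SNAI2 had no other peak within 100 kb, which held for 12.9% of the list's summits. The median over the 10 start sites was 4. The next peak was 116 kb downstream and 195 kb upstream of YAP1.

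**Figure D4:**
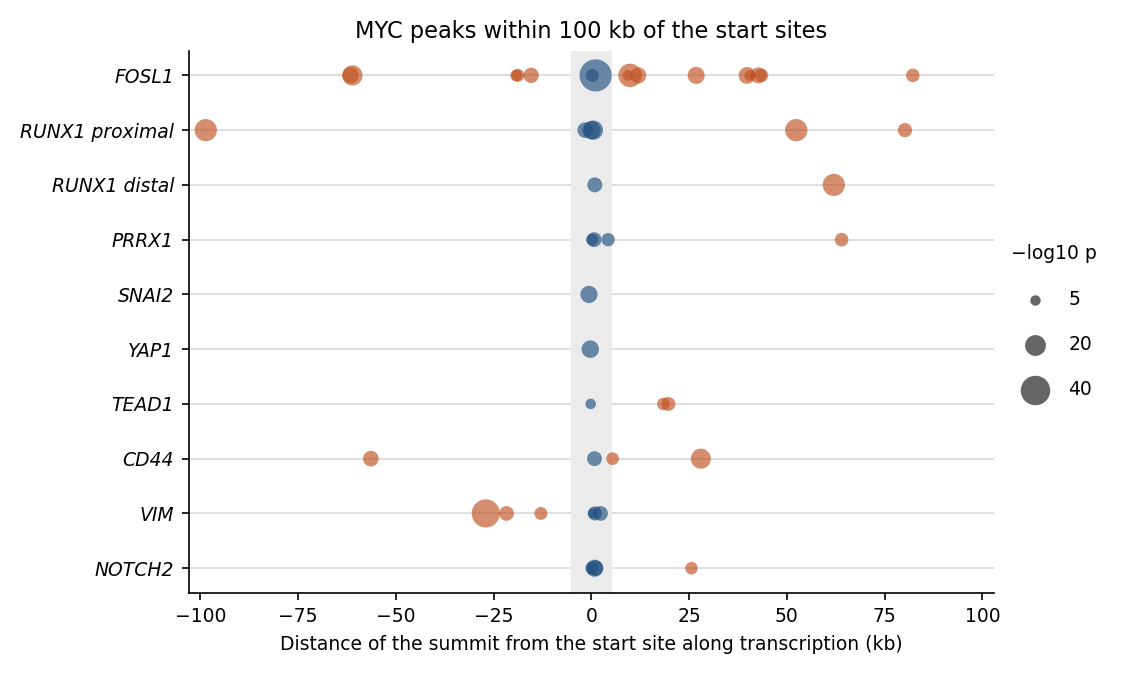
Peaks within 100 kb of the 10 start sites, with distance along transcription in kb on the x axis. Circle area gives −log10 p, blue circles lie within 5 kb (shaded) and orange ones farther away. FOSL1 has 16 peaks and SNAI2 and YAP1 have 1 each, and the largest circle of VIM lies 27.0 kb upstream.

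At 5 of the 10 start sites (both of RUNX1, and those of TEAD1, CD44 and VIM) the peak with the highest −log10 p within 100 kb lay outside the 5 kb window. The stretch outside that window is far longer than the window. The matching share for other start sites was not computed, so whether this is particular to the 9 genes was not tested. The strongest was 27.0 kb upstream of VIM, at 17243138 to 17243646, with 29 fragments (19.4 to 41.6) and a fold of 17.2. Its −log10 p of 36.49 was at percentile 96.3 of the list. TRDMT1 is the coding gene next to VIM on that side in the RefSeq order of GRCh38.p14, and the peak was not matched to either gene. RUNX1 had a peak 52.4 kb downstream of its proximal start site (36208430 to 36208699) with 22 fragments (13.8 to 33.3) and a fold of 11.5. Another lay between its promoters, 62.0 kb downstream of the distal one (36359502 to 36359712), with 24 fragments (15.4 to 35.7) and a fold of 10.8. CD44 had a peak 28.0 kb downstream of its start site (35188283 to 35188524) with 24 fragments (15.4 to 35.7) and a fold of 8.39, against 11 fragments at the promoter peak, whose interval overlaps. TEAD1 had a pair 18.4 and 19.7 kb downstream, with 9 and 13 fragments.

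The second strongest site near FOSL1 lay 9.90 kb downstream of its start site (65657961 to 65658359), with 30 fragments (20.2 to 42.8) and a fold of 10.4. CCDC85B is the coding gene next to FOSL1 on that side in the same RefSeq order, and this peak too was not matched to a gene. The 27 peaks from 5 to 100 kb away had a median fold of 6.04 and a median −log10 p of 10.0, and 5 of them reached a fold of 10. At or above the list's median −log10 p were 13 of the 27, against 50.3% of the list.

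How many fragments a call needed differed between the surroundings and the promoters. At the median background of the peaks within 1 Mb, which ranged from 0.843 (NOTCH2) to 1.32 (PRRX1), 6 or 7 fragments reached the weakest −log10 p of the list. At the backgrounds of the member peaks themselves it took from 5 (TEAD1 and the NOTCH2 peak at 830 bp) to 12 (PRRX1 at 702 bp and VIM at 444 bp). Of the 19 member peaks, 3 stood no more than 3 fragments above the limit at their own background, those of TEAD1, VIM (the peak at 444 bp) and PRRX1 (the peak at 232 bp). VIM and PRRX1 had other peaks, while the TEAD1 peak was the only one within 5 kb of that gene.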

How the data were processed

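MYC binding was read from 1 peak list for 1 ChIP library with 1 input. Per the submitters' processing notes, GRCh37, STAR 2.5.2a, SAMtools 1.3, Picard 2.7.1, MACS2 2.1.0 and bedtools were used, with no role given. How the list was filtered is not given in the sources used here. The authors' deposited columns give the score, the fold (a ratio to local background), the −log10 p and the −log10 q of each peak. The score was not used. Summits were taken as start plus offset, and coordinates are 1-based GRCh37. The directions of transcription are textbook knowledge, matched to RefSeq for 6 genes.

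Pileup and background were recovered from fold and −log10 p, with (pileup + 1) / (background + 1) for the fold and the Poisson upper tail beyond the pileup for p. Whole pileups from 3 to 699 were tried, and 100% of peaks matched within 0.001. The procedure was tested on simulated data. Library depth is otherwise unknown. Percentiles are mid-ranks over the list. Without molecular identifiers, fragments may be copies of 1 molecule. Python 3.11.15 with SciPy 1.17.1 was used. No test was run, since 1 library per kind has no replicate error. All 9 genes of the list are named by rule. The members and lists were chosen with earlier results of these data known. The RefSeq tables (GRCh38.p14) gave sequences and neighbours' names only. Alternatives changed the window, the peak threshold, the distance measure and the E-box forms.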

Additional observations from a re-analysis of the deposited data

How the results depend on the processing

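All 10 start sites and all 9 genes had a peak at windows of 1, 2, 10 and 50 kb, and the 10 start sites also when distance was taken from the peak's edge. A stricter list changed this. With a −log10 p of at least the median, 6 start sites and 5 genes had a peak and 9 member peaks were left, and PRRX1, TEAD1, CD44 and VIM had none. At or above the upper quartile, 2 start sites and 2 genes were left, FOSL1 and RUNX1. A threshold lowers these numbers by construction. The share of the genome near a summit was 1.04% at 1 kb and 8.6% at 10 kb, which follows from the window. The other alternatives stayed within 1.5 times. No paired analysis was possible because there was 1 ChIP library and 1 input and the results come from no test. No replicate could be left out.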

Other observations

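The order of the genes depended on the measure of strength. By the best fold within 5 kb, PRRX1 at 5.24 stood below every gene other than TEAD1 at 4.13, whereas by pileup its best peak, with 20 fragments, came after FOSL1 only. FOSL1 led by both. The pileup intervals of 18 of the 19 peaks overlapped, which is not a test of their differences, and no interval was computed for the fold. The order below FOSL1 was not tested by either measure and remains uncertain.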
